A study of Mus musculus with 12 samples.

Results

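Replication-dependent histone genes make the histone proteins that package newly copied DNA. The genes described here were chosen by 2 criteria, their symbol and their summed counts. They were the rows of the count table whose symbol began with Hist1h, Hist2h, Hist3h or Hist4h and whose counts summed to at least 20 over all libraries. This rule found 9 genes of 32227, and all 9 had between 728 counts (Hist1h4m) and 1879 counts (Hist1h2bq), so no gene lay near the minimum and none fell below it. They were 4 H2A genes (Hist1h2al, Hist1h2an, Hist1h2ao and Hist1h2ap), 3 H2B genes (Hist1h2bp, Hist1h2bq and Hist1h2br) and 2 H4 genes (Hist1h4m and Hist1h4n). The 9 genes are a part of the family. Of 70 genes with such names in the GENCODE annotation, 69 were found in the table, 9 under the older symbol and 60 under the newer symbols such as H2bc4, and these 60 are described as the other replication-dependent histone genes. Hist1h2al is annotated as a processed pseudogene, so the label of a replication-dependent gene holds by annotation for the other 8.

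The data are bulk RNA sequencing of basophil-lineage cells sorted from C57BL/6J wild-type mice, with 3 libraries in each of 4 groups. Basophils are rare granulocytes with a role in allergy and in defence against parasites. BaPs are CD200R3+ c-Kit- CLEC12A-high CD34+ basophil progenitors from the bone marrow (BM). Pre-basophils, which the sample labels call BM immature basophils, are CD34- CLEC12A-high CD9-low cells from the bone marrow, and mature basophils are CD34- CLEC12A-low CD9-high cells from the bone marrow or the spleen. No treatment was given and the sources used here give no age. Cells of several animals were pooled for a library, and all libraries belong to a single experiment, so p-values measure the spread between pools.

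The core histones H2A, H2B, H3 and H4 form the spool around which DNA is wound. Their replication-dependent genes lie in clusters, often as H2A and H2B pairs that are read away from each other from a shared promoter, and they are expressed mainly in S phase. Their mRNAs usually end in a stem-loop in place of a poly(A) tail. Stem-loop binding protein (Slbp) holds that stem-loop, and the U7 machinery cuts the transcript behind it. These libraries were made from RNA captured by its poly(A) tail, so a value stands for the captured transcripts of a gene and need not follow the whole pool of its mRNA.

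The stem-loops are shown because this element usually stands in place of a poly(A) tail in histone mRNAs. A histone stem-loop was found in the last 100 bases of 1 annotated transcript of each of 5 genes. The transcript ran 3 bases past it in Hist1h2ap and Hist1h4m, 31 in Hist1h2ao and Hist1h4n, and 38 in Hist1h2bp. Whether the captured transcripts of these genes ended at the stem-loop was not tested. In these stretches, copied from the GENCODE transcripts (GRCm38), the capitals mark the stem-loop.
Hist1h2ao: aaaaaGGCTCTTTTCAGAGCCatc
Hist1h2ap: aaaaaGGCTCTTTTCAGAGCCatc
Hist1h2bp: acaaaGGCTCTTTTCAGAGCCacc
Hist1h4m: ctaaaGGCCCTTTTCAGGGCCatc
Hist1h4n: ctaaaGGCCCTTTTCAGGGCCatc
Among all 141767 annotated transcripts, 17 (0.0120%) held this element in their last 100 bases, and all 17 belonged to genes with Hist names. Hist1h2bp, Hist1h2bq and Hist1h2br each also have a spliced transcript of 2 exons that ends with the poly(A) signal AATAAA within its last 40 bases and holds no stem-loop. The remaining models of Hist1h2an, Hist1h2bq and Hist1h2br that are 1 exon long, and that of Hist1h2al, held neither element. The transcripts of Hist1h2bq and Hist1h2br annotated for nonsense-mediated decay also held no stem-loop.

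Reads of these genes can hardly be told apart, which limits every value given for a single gene. Hist1h2bq shared 97.3% of its 50-base windows with other genes, and Hist1h2br shared 88.7%. The share was 93.5% in Hist1h2ao, 93.1% in Hist1h2ap, 89.8% in Hist1h4m, 85.8% in Hist1h2an, 85.6% in Hist1h4n and 67.6% in Hist1h2al. It was lowest, at 44.1%, in Hist1h2bp. Hist1h2bq and Hist1h2br had 1961 windows in common, Hist1h2ao and Hist1h2ap 403, and Hist1h4m and Hist1h4n 317. Within these 3 pairs the counts were split between 44.4% and 59.7% for the gene named Hist1h2bq, Hist1h2ao or Hist1h4n in all 12 libraries. The sources do not state to which gene such reads were given, so the genes were not independent of each other, and the sums over each pair are given beside the single genes.

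The 8 genes other than Hist1h2al lie at chr13:21786826-21837530, a stretch of 50.7 kb (GRCm38). Within it Hist1h2an (chr13:21786826-21787218), Hist1h2bq (chr13:21806612-21810197), Hist1h4n (chr13:21831767-21832196) and Hist1h2ap (chr13:21833026-21833507) are on the minus strand. Hist1h2bp (chr13:21787461-21789213), Hist1h2ao (chr13:21810465-21810944), Hist1h4m (chr13:21811746-21812147) and Hist1h2br (chr13:21833743-21837530) are on the plus strand. Hist1h2al lies apart, at chr13:51202727-51203065 on the minus strand, 29.4 Mb away. The H2A and H2B genes form 3 divergent pairs, with 240 bases between the RefSeq starts of Hist1h2an and Hist1h2bp, 168 between those of Hist1h2bq and Hist1h2ao, and 268 between those of Hist1h2ap and Hist1h2br.

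Promoter windows of 300 bases (250 before and 50 after the start, RefSeq on GRCm38.p6) were at hand for these 8 genes. The windows of Hist1h2bq and Hist1h2br were identical over 300 of 300 bases, and those of Hist1h4m and Hist1h4n over 298 of 299 aligned bases. The stretch between the starts of Hist1h2an and Hist1h2bp (chr13:21787249-21787487), and the 250 bases before Hist1h2br (chr13:21833493-21833742) and before Hist1h4m (chr13:21811496-21811745), all read on the plus strand, are shown as examples of the 8 windows. The part of these sequences in the levels that follow was not tested. The capitals mark CCAAT and TATAAA on either strand.
Hist1h2an and Hist1h2bp: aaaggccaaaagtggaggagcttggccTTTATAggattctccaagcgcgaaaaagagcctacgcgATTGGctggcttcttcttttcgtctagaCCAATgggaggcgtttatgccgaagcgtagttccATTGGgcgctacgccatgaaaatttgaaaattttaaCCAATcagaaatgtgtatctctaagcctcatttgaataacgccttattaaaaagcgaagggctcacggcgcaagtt
Hist1h2br: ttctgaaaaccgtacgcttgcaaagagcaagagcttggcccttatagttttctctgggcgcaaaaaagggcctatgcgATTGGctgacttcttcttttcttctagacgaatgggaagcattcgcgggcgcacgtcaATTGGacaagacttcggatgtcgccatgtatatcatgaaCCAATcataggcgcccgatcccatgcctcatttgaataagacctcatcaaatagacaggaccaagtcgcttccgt
Hist1h4m: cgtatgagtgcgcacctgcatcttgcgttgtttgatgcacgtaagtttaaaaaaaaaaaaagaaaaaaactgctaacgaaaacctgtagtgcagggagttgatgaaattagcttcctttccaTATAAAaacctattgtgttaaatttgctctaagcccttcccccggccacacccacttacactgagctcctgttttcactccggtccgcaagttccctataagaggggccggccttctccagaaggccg
The stretch shared by Hist1h2an and Hist1h2bp held 4 CCAAT sites and 1 TATAAA. The stretch before Hist1h2br held 3 CCAAT sites and no TATAAA, and the stretch before Hist1h4m held 1 TATAAA and no CCAAT. Of all 32851 promoter windows, 37.4% held CCAAT and 13.6% held TATAAA. The octamer ATTTGCAT, known from H2B promoters and present in 1.74% of all windows, was in none of the 8 windows.

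Library totals ran from 3596108 to 8151030 counts, and the 9 genes took 0.00756% to 0.0362% of a library. A gene had 19 to 327 counts in a library, and all 9 passed the filter on low counts. Levels are given as CPM, the counts of a gene relative to the TMM-scaled library size. All 8 basophil identity genes fixed as markers (Mcpt8, Prss34 and Fcer1a among them) were detected in every library. BaP replicate 3 stood apart from the other BaP libraries. Its TMM factor was 1.30, its mitochondrial share was 3.53% and its summed erythroid markers reached 2413 CPM, against 8.84 and 11.3 CPM in replicates 1 and 2. In the same order, its T and NK cell markers summed to 889 CPM against 440 and 336 CPM, and its basophil genes to 25389 CPM against 68462 and 63079.7 CPM. All 9 histone genes were lowest in this library among the BaPs.

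The comparison of pre-basophils with BM mature basophils asks how the cells change as they mature in the marrow. Of the 9 histone genes, 8 were higher in pre-basophils and none was lower. The groups did not overlap for these 8. Among all 15083 genes tested, 27.3% were called in either direction and 16.3% were called higher, 25.5% lay higher without overlap and 21.5% lay lower without overlap. Hist1h2an, an H2A gene, measured 24.9, 25.1 and 20.8 CPM in the pre-basophil libraries and 6.05, 6.01 and 6.55 CPM in the BM mature libraries. This was the largest difference of the 9, 3.77-fold (log2 1.91 ± 0.26 SE, n = 3 each, edgeR adjusted p = 0.000123). All 3 pre-basophil libraries lay far above the BM mature libraries, which were close to each other.

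The H2B genes followed. Hist1h2bp measured 47.2, 43.1 and 39.8 CPM before maturation and 13.4, 14.3 and 8.99 CPM after it, a 3.59-fold difference (log2 1.84 ± 0.30, adjusted p = 0.000529). This is the gene of the 9 with the largest share of sequence of its own. Hist1h2bq was at 56.5, 60.4 and 52.3 CPM against 16.5, 17.5 and 17.6 CPM, and was 3.26-fold higher (log2 1.71 ± 0.29, adjusted p = 0.000696). Hist1h2br was at 69.6, 48.7 and 51.5 CPM against 20.7, 15.5 and 14.6 CPM, and was 3.36-fold higher (log2 1.75 ± 0.28, adjusted p = 0.000486). Summed before the fit, this near-identical pair was higher by log2 1.73 (adjusted p = 0.000319).

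Hist1h2ao measured 35.8, 34.1 and 28.0 CPM against 13.05, 10.5 and 8.05 CPM (log2 1.65 ± 0.28, adjusted p = 0.000704). Hist1h2ap was at 30.2, 36.0 and 27.3 CPM against 9.87, 11.5 and 9.17 CPM (log2 1.61 ± 0.24, adjusted p = 0.000279). Their sum was higher by log2 1.63 (adjusted p = 0.000249). The H4 genes had the smallest called differences. Hist1h4m was at 18.4, 13.6 and 15.7 CPM against 7.96, 8.51 and 6.93 CPM, 2.04-fold (log2 1.03 ± 0.25, adjusted p = 0.00832). Hist1h4n was at 19.6, 20.2 and 14.6 CPM against 11.8, 9.51 and 6.74 CPM, 1.96-fold (log2 0.97 ± 0.28, adjusted p = 0.0187). The call of Hist1h4n rested on single libraries. Leaving out pre-basophil replicate 1 gave an adjusted p of 0.0686, leaving out pre-basophil replicate 2 gave 0.0649, and leaving out BM mature replicate 3 gave 0.0924. The sum of both H4 genes was higher by log2 0.998 (adjusted p = 0.00524).

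**Figure D1:**
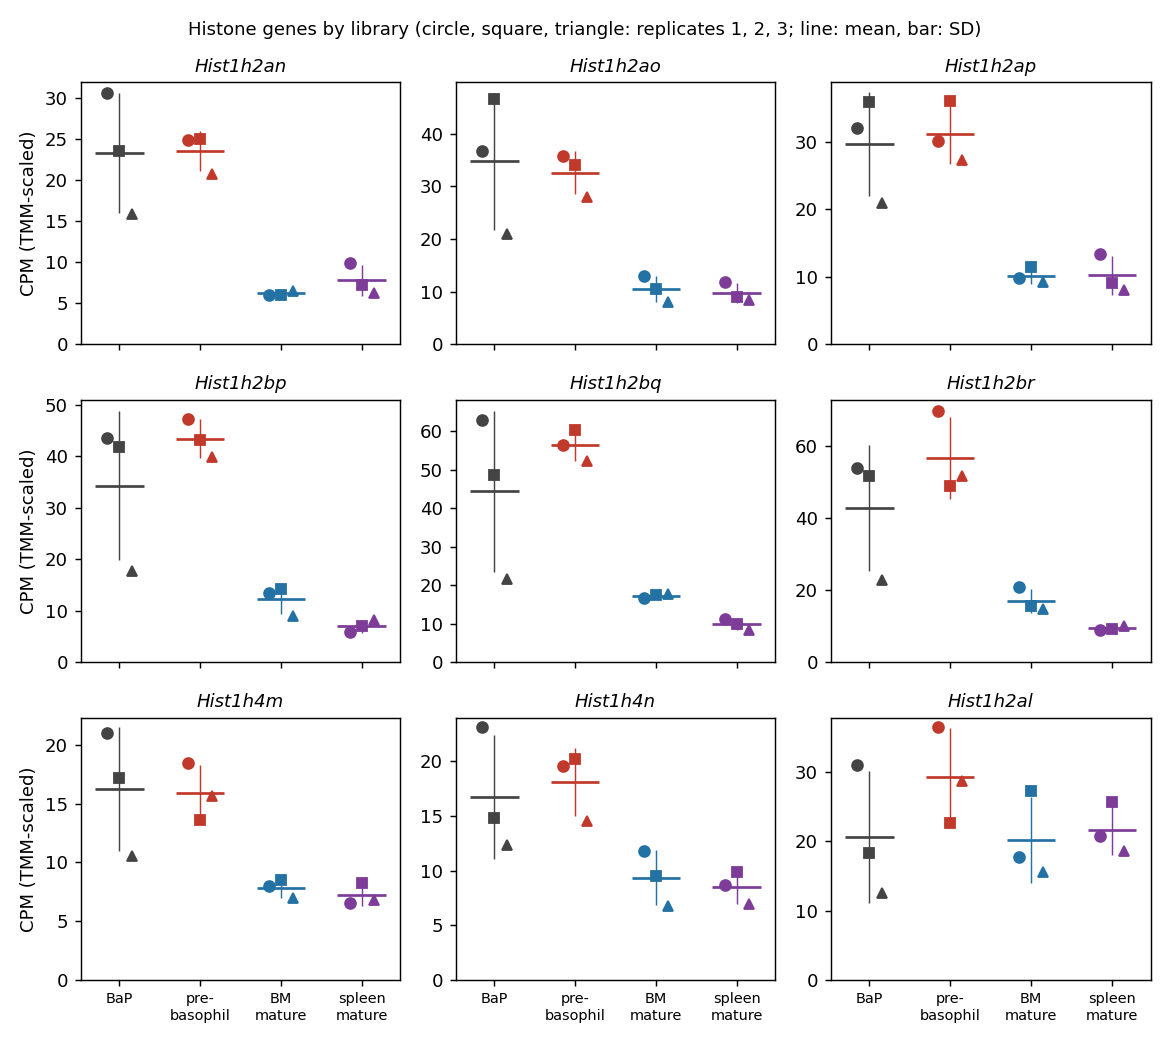
CPM (TMM-scaled, axes from 0) of the 9 histone genes in the 12 libraries, with the mean as a line and the SD as a bar for each group (n = 3). In 8 genes the 3 pre-basophil libraries lie above all BM mature libraries, and in Hist1h2al (bottom right) the groups overlap.

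In bulk samples, fewer cells of a type and less RNA per cell cannot be told apart. Markers of other cells also moved with this comparison. All 10 neutrophil markers were higher in pre-basophils, with sums of 1001 to 2344 CPM against 91.4 to 127 CPM in BM mature basophils. Cd177 was at 0 in 2 BM mature libraries and Mmp8 in 1. The 8 T and NK cell markers summed to 207 to 233 CPM against 81.4 to 113 CPM, but 1 of the 7 tested, Nkg7, was called higher, the median log2 over the 7 was -1.73, and Cd3g was at 0 in 2 pre-basophil libraries and Cd3e in 1. The erythroid markers moved the other way, with sums of 43.0 to 56.0 CPM in pre-basophils against 185 to 204 CPM, although 0 of 6 tested were called and Car1 was at 0 in all 3 BM mature libraries. All 5 megakaryocyte markers had negative log2 values (median -2.48), and 0 were called. The part of these cells in the histone result was not tested.

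BaPs, taken as a reference for the earliest stage, showed no called difference from pre-basophils in any of the 9 genes, where 7.08% of all genes were called (2.79% higher and 4.29% lower in BaPs). By unadjusted p, 0 of 9 were under 0.05 as well, DESeq2 and limma-voom each called 0, and the smallest adjusted p by edgeR was 0.318, in Hist1h2al. The libraries of both groups overlapped in all 9. Hist1h2bq was at 62.8, 48.6 and 21.7 CPM in the BaP libraries, Hist1h2an at 30.6, 23.6 and 15.9 CPM, and Hist1h4m at 21.0, 17.2 and 10.6 CPM, so that BaP replicates 1 and 2 were close to pre-basophils and replicate 3 was lower. The differences from pre-basophils were log2 -0.37 ± 0.27 in Hist1h2bq, -0.03 ± 0.23 in Hist1h2an and 0.01 ± 0.24 in Hist1h4m. The median of the 9 log2 values was -0.12 with and 0.10 without BaP replicate 3, and 0 of 9 were called either way, where 12.4% of all genes were called without that library.

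The same 3 BM mature libraries were the baseline for pre-basophils and for BaPs, so both comparisons were not independent of each other. Against BM mature basophils, 8 of 9 genes were higher in BaPs and none was lower. Of all genes, 45.0% were called there, 25.3% higher and 19.7% lower. The 8 histone genes did not overlap, while 28.1% of all genes lay higher and 23.9% lay lower without overlap. The neutrophil markers were again higher in 10 of 10, with sums of 1966 to 2442 CPM in BaPs. The T and NK cell markers were positive in 7 of 7 with 2 called, and summed to 336 to 889 CPM against 81.4 to 113 CPM. The erythroid markers were positive in 6 of 6 with 2 called, although their sums in BaP replicates 1 and 2 lay below those of BM mature basophils. The part of these cells was not tested. The log2 differences ran from 0.85 (Hist1h4n) to 1.88 (Hist1h2an) among these 8, and Hist1h2al stood at 0.00 ± 0.36. Without BaP replicate 3, 8 were again higher, where 51.3% of all genes were called in either direction, and the H2B genes Hist1h2bp, Hist1h2bq and Hist1h2br moved from log2 1.48, 1.34 and 1.32 to 1.84, 1.70 and 1.67. The call of Hist1h4n was lost without BaP replicate 1 (adjusted p = 0.109), BM mature replicate 2 (adjusted p = 0.0529) or BM mature replicate 3 (adjusted p = 0.108). Over the 4 groups at once, 8 of 9 genes differed, against 57.8% of all genes, and Hist1h2al did not pass (adjusted p = 0.312).

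**Figure D2:**
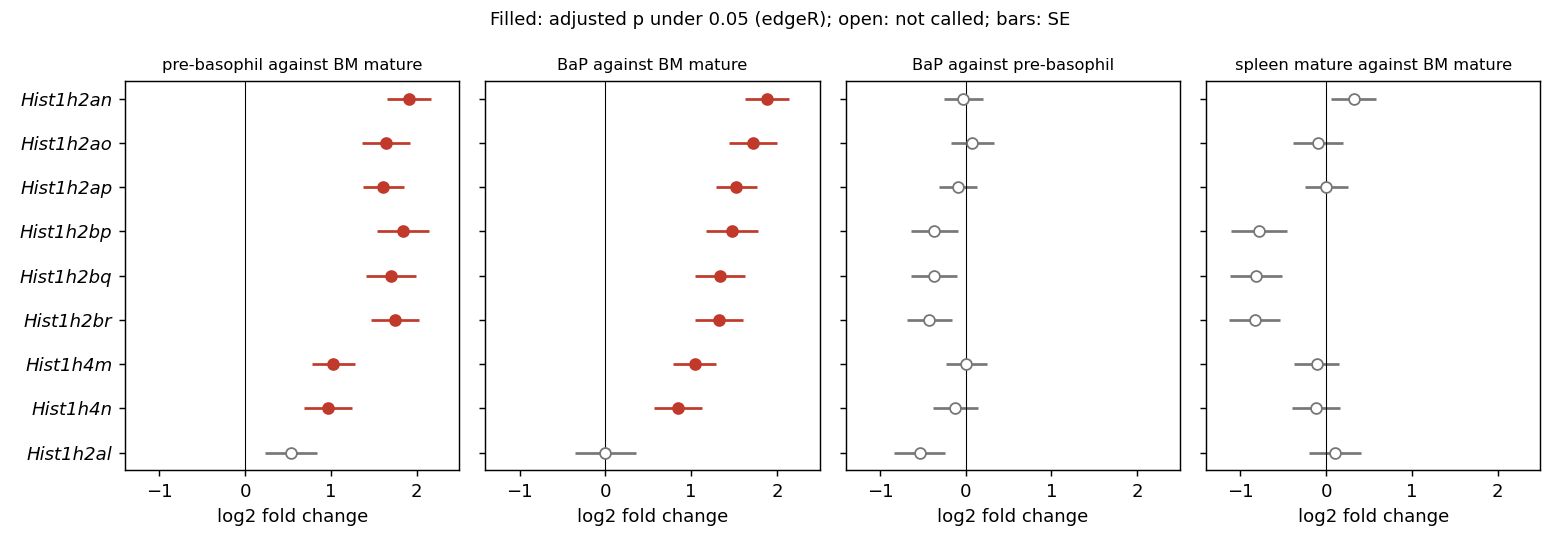
Log2 fold changes with SE of the 9 histone genes in the 4 comparisons, filled where the adjusted p was under 0.05 and open elsewhere. The 8 genes other than Hist1h2al lie between 0.85 and 1.91 in both comparisons with BM mature basophils on the left, no gene is called in the others, and in the last panel the 3 H2B genes lie at -0.78 to -0.83 while the other 6 lie between -0.12 and 0.32.

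Spleen mature basophils did not differ by the test from BM mature basophils in any of the 9 genes, where 7.83% of all genes were called (3.16% higher and 4.67% lower in the spleen). DESeq2 and limma-voom also called 0 of 9, and 3 had an unadjusted p under 0.05. These 3 were the H2B genes. Hist1h2bp was at 5.76, 6.93 and 8.23 CPM in the spleen against 13.4, 14.3 and 8.99 CPM in the marrow (log2 -0.78 ± 0.33, adjusted p = 0.156). Hist1h2bq was at 11.2, 9.90 and 8.37 CPM against 16.5, 17.5 and 17.6 CPM (log2 -0.82 ± 0.31, adjusted p = 0.12). Hist1h2br was at 8.80, 9.24 and 10.1 CPM against 20.7, 15.5 and 14.6 CPM (log2 -0.83 ± 0.30, adjusted p = 0.105). In each of the 3 genes all spleen libraries lay below all BM mature libraries, as did 17.1% of all genes. The pair Hist1h2bq and Hist1h2br, summed before the fit, gave log2 -0.83 with an adjusted p of 0.0774. Without BaP replicate 3 all 3 genes passed, with adjusted p of 0.0121, 0.00218 and 0.00485 in that order, and 18.02% of all genes tested were then called. They also passed when no genes were filtered out (adjusted p = 0.0156, 0.00262 and 0.00228), where 5.57% of 32227 genes were called.

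The log2 values of the H2A and H4 genes were nearer to 0, and none had an unadjusted p under 0.05. Hist1h2an was at 9.92, 7.26 and 6.24 CPM in the spleen (log2 0.32 ± 0.27), Hist1h2ao at 11.8, 8.91 and 8.50 CPM (log2 -0.09 ± 0.29) and Hist1h2ap at 13.4, 9.08 and 8.10 CPM (log2 0.00 ± 0.25). Hist1h4m and Hist1h4n differed by log2 -0.11 ± 0.26 and -0.12 ± 0.28. Within these 5 genes the spleen and BM mature libraries overlapped. Each H2B gene shares its divergent promoter with 1 of the 3 H2A genes, such as Hist1h2bp with Hist1h2an. The 7 B cell markers summed to 200 to 342 CPM in the spleen against 43.6 to 57.8 CPM in the marrow, with 4 of 7 called higher and none of the 7 at 0 in a library of either group. The 8 basophil identity genes all had negative log2 values (median -0.73), with 3 called lower and sums of 7091 to 7913 CPM against 12928 to 15872 CPM. The monocyte and macrophage markers summed to 19.3 to 26.6 CPM against 6.26 to 12.2 CPM, with 1 of 3 tested called higher, and Ly86 was at 0 in 2 BM mature libraries. Of these 3, 1 had a negative log2 (-1.08), and Csf1r had 19 counts in the spleen libraries and 26 in the BM mature libraries. The megakaryocyte markers summed to 671 to 1007 CPM against 574 to 649 CPM, with 1 of 5 called higher and 1 with a negative log2. The part of these cells, and of the lower S phase genes, in these values was not tested.

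The ratio of H2B to H2A counts within a library does not depend on the scaling between libraries, and was computed after the values above were seen. With Hist1h2al left out, the 3 H2B genes had 1.75, 1.69 and 1.73 times the counts of the 3 H2A genes in BM mature libraries and 0.732, 1.03 and 1.17 times in spleen libraries. The ratio was 1.91, 1.60 and 1.89 in pre-basophils and 1.61, 1.34 and 1.07 in BaPs. The spleen and BM mature libraries did not overlap, and the pre-basophil libraries lay around the BM mature ones. No test was made of this ratio, since it is a score over chosen genes.

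**Figure D3:**
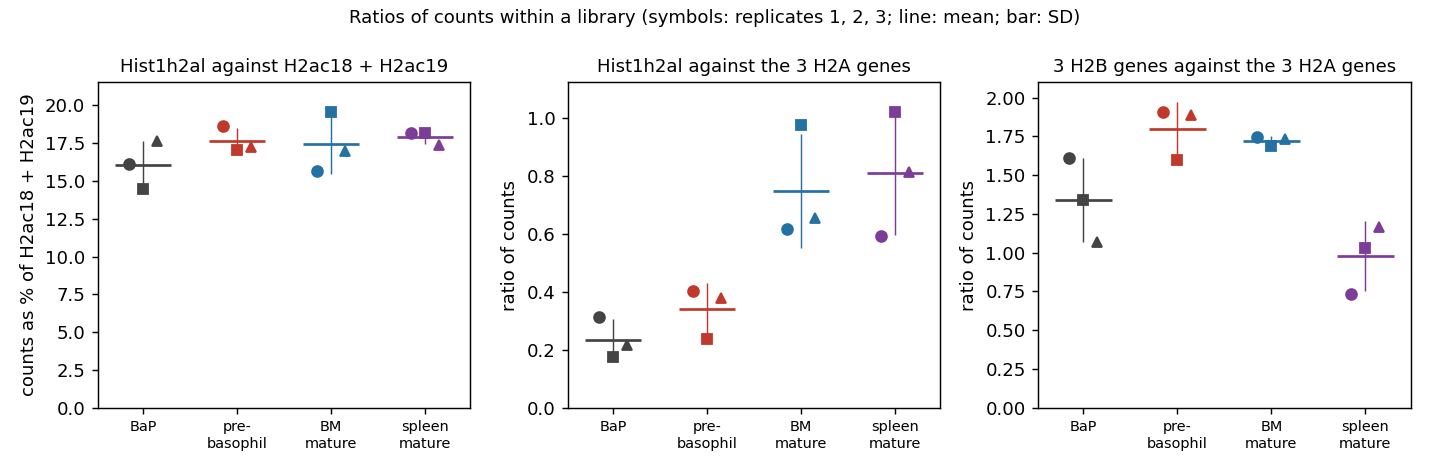
Ratios of counts within each of the 12 libraries (axes from 0, mean as a line, SD as a bar, n = 3 per group): Hist1h2al as a percentage of H2ac18 plus H2ac19 (left), Hist1h2al per count of Hist1h2an, Hist1h2ao and Hist1h2ap (middle), and the 3 H2B genes per count of those 3 H2A genes (right). The left ratio stays at 14.5% to 19.6% in all libraries, the middle one is higher in both mature groups, and the right one is lowest on average in the spleen.

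Hist1h2al alone of the 9 was called neither in pre-basophils nor in BaPs against BM mature basophils. The BaP libraries measured 31.1, 18.4 and 12.5 CPM, and the pre-basophil libraries 36.6, 22.6 and 28.8 CPM. The BM mature libraries measured 17.8, 27.3 and 15.5 CPM, and the spleen libraries 20.8, 25.7 and 18.6 CPM. Pre-basophils and BM mature basophils differed by log2 0.54 ± 0.31 (adjusted p = 0.216) and overlapped. Its sequence is shown because it is closer to other H2A genes than to the H2A genes of the cluster. The longest run identical to H2ac18 and H2ac19 (older symbols Hist2h2aa1 and Hist2h2aa2, on chromosome 3) was 123 bases, and the longest run identical to Hist1h2an, Hist1h2ao and Hist1h2ap was 66 bases, in capitals here.
Hist1h2al: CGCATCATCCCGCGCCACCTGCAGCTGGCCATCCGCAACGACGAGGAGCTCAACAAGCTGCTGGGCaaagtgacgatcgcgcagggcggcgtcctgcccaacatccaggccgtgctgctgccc
Of its 290 windows of 50 bases, 190 (65.5%) occurred in each of H2ac18, H2ac19 and Gm20634, and 123 (42.4%) in H2ac20. H2ac18 and H2ac19 differed between pre-basophils and BM mature basophils by log2 0.52 ± 0.29 (adjusted p = 0.209) and 0.53 ± 0.28 (adjusted p = 0.183). In BaPs against BM mature basophils they stood at 0.19 and 0.15, and in the spleen against the marrow at 0.09 and 0.07, beside 0.00 and 0.10 for Hist1h2al. The counts of Hist1h2al were 14.5% to 19.6% of those of H2ac18 and H2ac19 together in all 12 libraries. Per count of the other 3 H2A genes, they ranged from 0.173 to 0.403 in BaPs and pre-basophils and from 0.591 to 1.02 in the mature groups.

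Among the 60 other replication-dependent histone genes, 58 were tested, 49 were higher in pre-basophils than in BM mature basophils and none was lower, with a median of log2 1.69 beside 1.65 for the 9 genes and -0.0044 for all genes tested. Of all genes tested, 16.3% were called higher in this comparison. Many of the 58 rows share sequence with the 9, so they are not separate evidence. By class, 13 of 15 tested H2B genes were higher (median log2 1.72), 12 of 15 H2A genes (1.52), 11 of 12 H3 genes (1.73), 9 of 11 H4 genes (1.61) and 4 of 5 genes of the linker histone H1 (0.73). The row with the highest mean CPM in each class was H1f2 (log2 0.71 ± 0.23), H2ac19 (0.53 ± 0.28, not called), H2bc4 (1.58 ± 0.26), H3c1 (1.45 ± 0.23) and H4c9 (1.54 ± 0.26). In BaPs 46 of 58 were higher than in BM mature basophils and none was lower, where 25.3% of all genes were called higher. Between BaPs and pre-basophils H1f4 alone was called, lower in BaPs (log2 -0.72 ± 0.20, adjusted p = 0.0399). That is 1.72% of the 58, where 4.29% of all genes were called lower.

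Between the spleen and the marrow, 2 of these 58 genes were called, both H2B genes lower in the spleen, H2bc12 (log2 -1.46 ± 0.35, adjusted p = 0.0243) and H2bc8 (log2 -0.93 ± 0.24, adjusted p = 0.0342). Of the 15 tested H2B genes, 14 had negative log2 values, with a median of -0.80 beside -0.82 for Hist1h2bp, Hist1h2bq and Hist1h2br. Of these 15, 9 lay lower without overlap, as did 17.1% of all genes. The medians of the other classes were 0.03 in H2A, -0.04 in H3, -0.20 in H4 and -0.08 in H1. The 2 called genes are 3.45% of the 58, where 4.67% of all genes were called lower. This share was near that of all genes. Without BaP replicate 3, 10 of the 58 (17.2%) were called, all lower, where 18.02% of all genes were called in either direction. The share of all genes called lower was not computed in that setting, so the 17.2% has no like measure beside it.

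**Figure D4:**
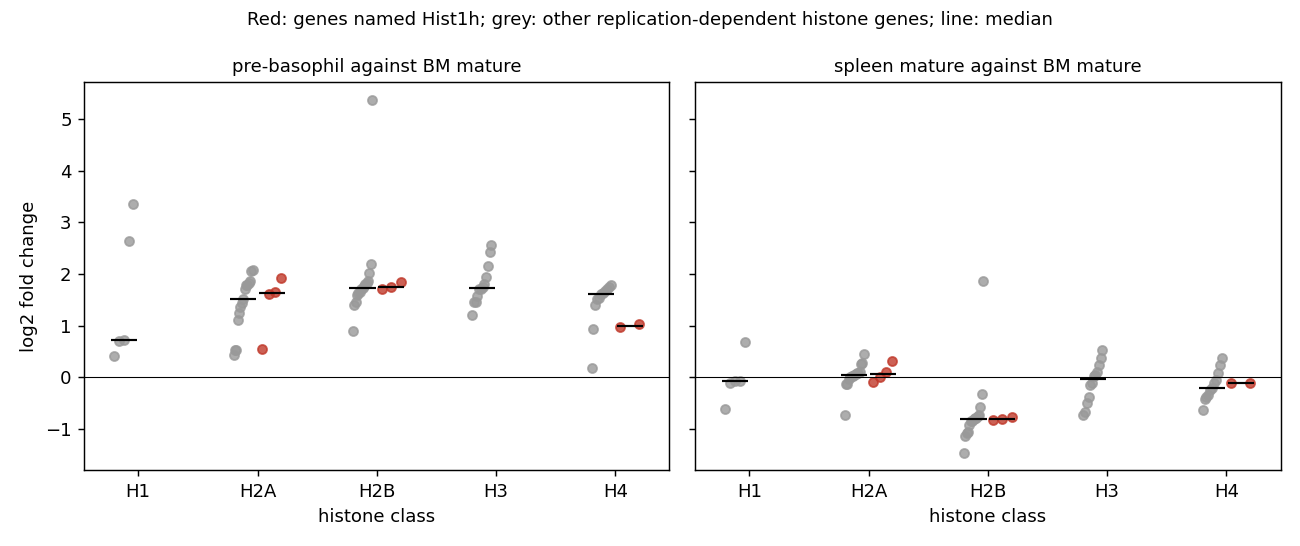
Log2 fold changes of pre-basophils (left) and of spleen mature basophils (right) against BM mature basophils, by histone class, for the 9 genes with Hist1h names (red) and the 58 tested others (grey), with the median of each as a line. On the left all points are above 0, and on the right the median of the grey H2B points is -0.80 while those of the other classes lie between -0.20 and 0.03. The grey H2B point above the rest on both sides is H2bu2, with 140 counts in all.

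Genes that act with these histones were listed separately. Of 15 tested genes of histone mRNA synthesis and 3' end processing, 8 were higher in pre-basophils than in BM mature basophils and none was lower (median log2 0.52). In the same comparison, 16.3% of all genes were called higher. Slbp was at 124, 112 and 118 CPM against 61.7, 52.1 and 57.7 CPM and was 2.07-fold higher (log2 1.05 ± 0.14, adjusted p = 0.000134). Npat, the activator of histone gene transcription, was higher by log2 0.99 ± 0.22 (adjusted p = 0.00411), and Eri1, a nuclease that trims histone mRNA ends, by 1.23 ± 0.16 (adjusted p = 0.000104). Lsm10 of the U7 particle stood at -0.51 ± 0.25 (adjusted p = 0.144) and Lsm11 at 0.59 ± 0.21 (adjusted p = 0.0458). In the spleen, Slbp and Npat stood at log2 -0.04 ± 0.14 and -0.24 ± 0.22. There 2 of 15 genes (13.3%) were called, Upf1 and Sympk, both higher, where 3.16% of all genes were called higher.

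Histone chaperones and assembly factors, which hand histones to DNA, were higher in 14 of 19 tested, where 16.3% of all genes were called higher. Asf1b was at 63.4, 53.8 and 57.3 CPM in pre-basophils against 3.50, 7.01 and 5.05 CPM in BM mature basophils (log2 3.46 ± 0.29, adjusted p = 3.53e-06). Chaf1a, the large subunit of the assembly factor CAF-1, was higher by log2 1.87 ± 0.22 (adjusted p = 4.24e-05). All 20 of the S phase reference genes, such as Mcm3 of the replicative helicase (log2 3.08 ± 0.23, adjusted p = 1.77e-06) and Pcna, the sliding clamp (log2 1.54 ± 0.18, adjusted p = 4.81e-05), were higher, with a median of log2 2.24. Summed, the S phase genes were at 1094 to 1344 CPM in pre-basophils and 277 to 295 CPM in BM mature basophils. In the spleen they summed to 181 to 202 CPM, below all BM mature libraries. There 19 of 20 had negative log2 values (median -0.44), and 3 were called lower, or 8 without BaP replicate 3 with 1 called higher. Of all genes, 4.67% were called lower in the main fit, and 18.02% were called in either direction without BaP replicate 3.

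Replacement variants stand in for the main histones, and most are made outside S phase too, from mRNAs with poly(A) tails. Of 10 tested, 6 were higher in pre-basophils than in BM mature basophils and none was lower, where 16.3% of all genes were called higher. H2ax, which marks DNA breaks, was higher by log2 2.64 ± 0.27 (adjusted p = 1.27e-05), Cenpa, the centromere variant, by 2.09 ± 0.16 (adjusted p = 1.93e-06) and H2az1 by 1.72 ± 0.18 (adjusted p = 1.64e-05). The H3.3 genes H3f3a and H3f3b stood at 0.12 ± 0.11 (adjusted p = 0.45) and -0.22 ± 0.18 (adjusted p = 0.406). In the spleen, 6 of 10 were lower than in the marrow and none was higher, where 4.67% of all genes were called lower and 3.16% higher. Among the 6 were H1f0 (log2 -1.61 ± 0.28, adjusted p = 0.00606), H2az1 (-1.01 ± 0.18, adjusted p = 0.00651) and H3f3b (-0.89 ± 0.18, adjusted p = 0.0133). Between BaPs and pre-basophils 1 of 10 was called, H3f3b, lower in BaPs (log2 -0.74 ± 0.18, adjusted p = 0.0293). This share was near that of all genes, of which 7.08% were called in either direction.

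Summed over the 9 genes, the level was 263 ± 95.0 CPM (mean ± SD, n = 3) for BaPs and 307 ± 30.1 CPM for pre-basophils. It was 111 ± 14.4 CPM for BM mature and 91.3 ± 8.30 CPM for spleen mature basophils. Without replicate 3 the mean of the BaPs was 317 CPM. The BaP and pre-basophil libraries overlapped, and each of them was above all libraries of the mature groups. The H2B sum was 156 ± 15.3 CPM for pre-basophils, 46.4 ± 4.78 in BM mature basophils and 26.2 ± 0.473 in the spleen. The H2A sum without Hist1h2al was 87.4 ± 9.99, 26.9 ± 2.77 and 27.8 ± 6.56 CPM in the same order, and the H4 sum was 34.0 ± 3.90, 17.1 ± 3.13 and 15.7 ± 2.27 CPM. The counts of the 9 genes per count of the 20 S phase genes were 0.162 ± 0.0229 for BaPs and 0.253 ± 0.0250 for pre-basophils, and 0.388 ± 0.0443 for BM mature and 0.478 ± 0.0494 for spleen mature basophils. Libraries of BaPs, pre-basophils and the mature groups did not overlap in this ratio, which was not tested.

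**Figure D5:**
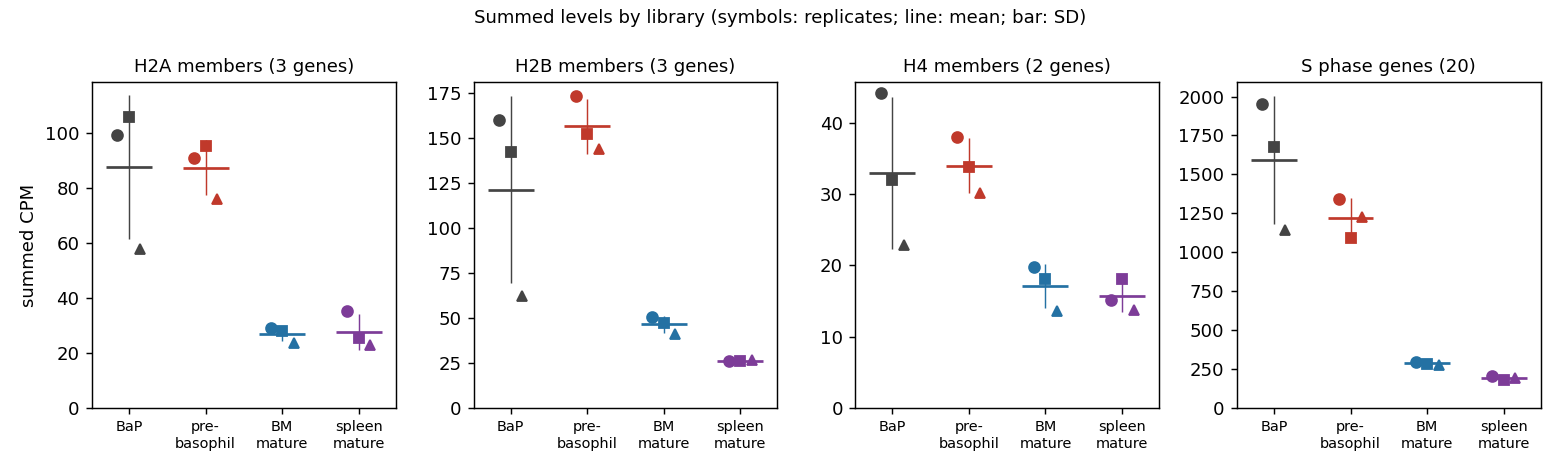
Summed CPM in each library (axes from 0, mean as a line, SD as a bar, n = 3 per group) of the 3 H2A genes other than Hist1h2al, the 3 H2B genes, the 2 H4 genes and the 20 S phase reference genes. All 4 sums are higher in every pre-basophil library than in any mature library, and the H2B sum is lower in the spleen (25.8 to 26.7 CPM) than in BM mature basophils (41.2 to 50.6 CPM).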

How the data were processed

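Basophil-lineage cells sorted from mice (12 libraries, 3 in each of 4 groups taken from the sample titles) were profiled by bulk RNA sequencing of RNA captured by its poly(A) tail and amplified by the TAS-Seq workflow. The authors deposited raw read counts per gene, without normalization. As the study's methods state, reads were trimmed with Cutadapt 3.4, and Bowtie2 2.4.2 aligned them against the RNA sequences of GRCm38. The submitters' processing notes list GRCm39, also named mm39. Use of strand and the assignment of reads that match several genes are not given in the sources used here, so genes with near-identical copies are uncertain. Molecular identifiers are not mentioned, and counts include PCR copies.

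The members and gene lists were chosen with earlier results of these data known. Counts were filtered with filterByExpr, scaled by TMM and fitted with edgeR 4.0.16 (R 4.3.3) in a quasi-likelihood model of all 12 libraries with a coefficient per group, and p-values were adjusted by the Benjamini-Hochberg method over 15083 genes, called under 0.05. This replaced the TCC package of the study, which was not installed and was rebuilt as an alternative (repeated TMM without called genes). SEs are the log2 fold change divided by the square root of F. The script was tested on simulated counts of known changes. Genes were named by their mean CPM and by the size of called changes, and from the fixed lists. Replicate libraries differed by 4.16 to 35.0 in chi-square per degree of freedom, so each counted as 1 sample. Replicate numbers come from the sample titles. The deviations of same-numbered libraries from their group means correlated at 0.125 to 0.262 in all 9 pairs among the 3 marrow groups, a sign of pairing. They correlated at 0.000366 to 0.0899 in the 9 pairs with the spleen. Each of the 12 libraries, those of the spleen among them, correlated best with a library of its own number. The main fit held no replicate term, so its SEs and p-values do not use this pairing, which entered only in the alternative with a replicate block. Coordinates and transcripts come from GENCODE M21 and promoters from RefSeq, both on GRCm38, where RefSeq held 8 of the 9 genes. A window was called shared where its 50 bases occurred exactly in a transcript of another gene. Alternatives used DESeq2 1.42.0, limma 3.58.1, other scalings, no filter, a replicate block and each library left out. The sum of near-identical copies was added after the data were seen. Protein sequences and the genome sequence were not used here.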

Additional observations from a re-analysis of the deposited data

How the results depend on the processing

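Counts of called genes among the 9 stayed at 7 to 9 for pre-basophils against BM mature basophils, 7 to 8 for BaPs against BM mature basophils, 8 to 9 over the 4 groups and 0 for BaPs against pre-basophils. For the spleen against BM mature basophils, 3 genes (the H2B genes) were called with no filter on low counts, and leaving out single libraries gave 0 to 3, with 3 without BaP replicate 3. The cause was not tested. Of 326 alternatives of the 16 called single-gene results, 320 kept their call and 0 changed sign. The 6 others were all Hist1h4n. Without the filter, Hist1h2al was called higher in pre-basophils than in BM mature basophils (log2 0.55, edgeR adjusted p = 0.0492). Scaling by library totals put the summed H2B reads at 40.4 CPM in BM mature and 24.9 CPM in spleen mature basophils.

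The sign changed under some settings only for genes not called. For Hist1h2al in BaPs against BM mature basophils, log2 was -0.014 with DESeq2 size factors, -0.055 with upper-quartile scaling, -0.13 with limma-voom, -0.039 with the replicate block and -0.41 to 0.31 with single libraries left out, and for the spleen against BM mature basophils the last range was -0.065 to 0.39. In BaPs against pre-basophils, library size alone gave 0.15 for Hist1h2an, 0.095 for Hist1h2ap and 0.061 for Hist1h4n, limma-voom gave -0.046 for Hist1h2ao and -0.13 for Hist1h4m, and Hist1h4m stood at -0.025 with the block and -0.056 when summed with Hist1h4n. With single libraries left out, these ran from -0.28 to 0.22 (Hist1h2an), -0.20 to 0.37 (Hist1h2ao), -0.25 to 0.14 (Hist1h2ap), -0.23 to 0.28 (Hist1h4m) and -0.42 to 0.10 (Hist1h4n). For the spleen against BM mature basophils, library size alone gave 0.042 for Hist1h2ao, 0.015 for Hist1h4m and 0.010 for Hist1h4n. Hist1h2ap stood there at -0.0062 with DESeq2 size factors, -0.050 with repeated TMM, -0.0061 with DESeq2, -0.035 with limma-voom and -0.017 with the block, and left-out libraries gave -0.27 to 0.057 (Hist1h2ao), -0.24 to 0.15 (Hist1h2ap) and -0.32 to 0.048 (Hist1h4n).

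Same-numbered libraries showed a sign of pairing in the 3 marrow groups and weaker correlations with the spleen, as given in the account of the processing. With the replicate block, the calls were 8, 0, 8 and 0 of 9 in the 4 comparisons (pre-basophils and then BaPs against BM mature basophils being the 8s) and 8 over the 4 groups, so it changed no call among the 9. That fit also held the spleen libraries. Counts of 19 to 327 per gene and library, and the shared sequence, limit what single genes can show.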
